A study of Mus musculus with 2 samples.

Results

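The miR-26 family of the mouse adrenal gland was examined through its 3 genes, Mir26b, Mir26a-1 and Mir26a-2. They were chosen by GENCODE M21 gene name among the 2202 microRNA (miRNA) genes with read counts, and all 3 were found. The counts came from microRNA-seq, in which RNAs of about the size of mature miRNAs are sequenced, of adrenal glands from female B6CASTF1/J mice aged 36 days. B6CASTF1/J is the first-generation cross of the laboratory strain C57BL/6J with the wild-derived strain CAST/EiJ, and the labels name no transgene or treatment. The samples formed 1 group of 2 libraries, replicates 1 and 2. The labels give these as biological replicates from separately numbered females but with a single donor identifier, so the spread between them may not be a spread between animals. There was no second tissue, age or treatment. The comparisons were therefore among the genes and between the libraries. Genes for steroid synthesis or chromaffin cells were not measured, so the tissue label was not checked against its defining markers.

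The miR-26 miRNAs are found in most vertebrate tissues. They are best known for lowering messages for growth and cell-cycle proteins, among them the chromatin enzyme Ezh2 and cyclins. Each gene lies inside a gene for a small C-terminal domain phosphatase (Ctdsp1, Ctdsp2 or Ctdspl), a family that acts on the tail of RNA polymerase II and, in the case of Ctdspl and its relatives, on the retinoblastoma protein. A miRNA hairpin is cut into a 5p and a 3p arm, and the seed of the arm that is kept, bases 2 to 8 from its 5′ end, largely sets which messages it pairs with.

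The mature sequences decide which of the 3 genes can be told apart by a short read, and are given 5′ to 3′ from RefSeq (GRCm38.p6) with the seed in capitals.
miR-26a-5p (Mir26a-1 and Mir26a-2): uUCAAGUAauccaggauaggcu
miR-26b-5p (Mir26b): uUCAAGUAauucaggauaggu
miR-26a-1-3p (Mir26a-1): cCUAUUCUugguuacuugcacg
miR-26a-2-3p (Mir26a-2): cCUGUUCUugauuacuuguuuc
miR-26b-3p (Mir26b): cCUGUUCUccauuacuuggcuc
The 5p arm was the same 22 bases in Mir26a-1 and Mir26a-2. Compared from the 5′ end, miR-26b-5p differed from it at 2 of 21 positions, C11U and C21U (the miR-26a base first), and was 1 base shorter. All 5p arms had the seed UCAAGUA, which no other mature miRNA name in the table carried. The 3p arms were different in all 3 genes. Those of Mir26a-1 and Mir26a-2 matched at 16 of 22 positions, and A4G lay within the seed. The miR-26a-2-3p seed CUGUUCU was shared with miR-26b-3p, with which it matched at 18 of 22 positions, and occurred under 4 mature names in all.

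The hairpins show how far the likeness of the Mir26a genes runs. Capitals mark the longest stretch that Mir26a-1 and Mir26a-2 have in common, and in Mir26b the longest that it has in common with Mir26a-1.
Mir26a-1: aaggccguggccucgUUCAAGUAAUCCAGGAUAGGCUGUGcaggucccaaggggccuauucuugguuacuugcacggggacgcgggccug
Mir26a-2: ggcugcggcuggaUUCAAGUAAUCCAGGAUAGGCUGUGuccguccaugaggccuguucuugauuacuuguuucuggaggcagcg
Mir26b: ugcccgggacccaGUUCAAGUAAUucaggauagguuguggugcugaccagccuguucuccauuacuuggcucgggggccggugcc
The Mir26a stretch was 25 bases long. It began at the first base of miR-26a-5p and ran 3 bases past its last. In the reference sequence a read of miR-26a-5p therefore matched both genes unless it reached at least 1 base upstream or more than 3 bases downstream. Mir26b had at most 11 bases in a row in common with Mir26a-1 and 10 with Mir26a-2. Of the windows of 20 bases along each hairpin, 6 of 71 in Mir26a-1 and 6 of 65 in Mir26a-2 also occurred in another hairpin of the table, against 0 of 66 in Mir26b. The search covered hairpins of 1005 genes and not the genome. These are sequences of the C57BL/6J reference, and the CAST/EiJ alleles that the hybrid animals also carry were not analysed here, neither for these matches nor for the reads counted at 1 place.

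**Figure D1:**
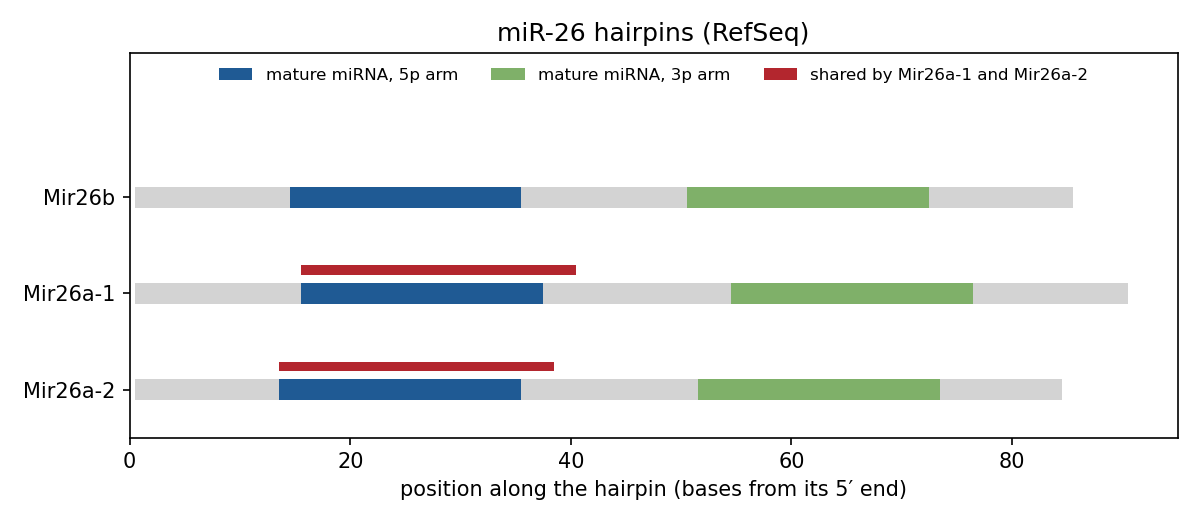
The 3 hairpins drawn to scale, with position in bases from the hairpin's 5′ end on the x axis, the mature arms in blue (5p) and green (3p), and the 25 bases that Mir26a-1 and Mir26a-2 share in red. The red bar covers the whole 5p arm of both Mir26a genes and none of the 3p arm.

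All 3 hairpins lay on the plus strand within a host gene on that strand, from 48.5% to 89.6% of the way along it. Of the 2202 genes, 44.0% lay within a protein-coding gene on the same strand. Positions are in mm10 with GENCODE M21. Mir26b (ENSMUSG00000065468.1, chromosome 1, 74394310 to 74394394) was in intron 4 of the 7-exon coding transcript of Ctdsp1, an intron of 564 bases. Mir26a-1 (ENSMUSG00000065513.1, chromosome 9, 119031796 to 119031885) was in intron 5 of the 8-exon coding transcript of Ctdspl, 1543 bases after the exon before it. Mir26a-2 (ENSMUSG00000065430.1, chromosome 10, 126995530 to 126995613) was in intron 5 of the 8-exon coding transcript of Ctdsp2. Its last base was also the first base of exon 1 of 2 shorter Ctdsp2 transcripts, an overlap of 1 base. Host messages were not measured in these libraries. Within 50 kb the 3 genes had 1 other miRNA gene, Mir546, which lay 2826 bases from Mir26a-2 and had 4 counts in replicate 1 and 1 in replicate 2.

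Replicate 1 held 5397603 counts on the sense strand of miRNA genes and replicate 2 held 3029977, a 1.78-fold difference in depth. Levels are given as CPM, which scales each library's sense counts to a total of 1000000, so that a single count stood for 0.185 CPM in the deeper library and 0.330 CPM in the other. Reads with more than 1 place in the genome are in no gene's count. They numbered 3984008, or 28.5% of all reads, in replicate 1, and 2302439, or 30.6%, in replicate 2. The tables do not divide them among genes, so the levels of Mir26a-1 and Mir26a-2 below are of reads that mapped to 1 place and are not levels of miR-26a. Fewer cells that make a miRNA and less of it in each cell cannot be told apart in a whole gland.

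Mir26b was among the most counted miRNA genes of the gland, and the Mir26a genes together had 1 count for every 394 to 399 of Mir26b. Mir26b had 163094 counts in replicate 1, or 30216 CPM (95% Wilson interval 30072 to 30361), and 115857 in replicate 2, or 38237 CPM (38022 to 38453). Among reads that mapped to 1 place, it ranked 9 of 2202 genes in replicate 1 and 10 in replicate 2. Reads with more than 1 place in the genome are not in this order and could change it. The mean of Mir26b was 34227 ± 5672 CPM (SD, n = 2 libraries), an SD of 16.6% of the mean. In the order of means it stood between Mir23a, a gene of a cluster known from blood vessels and muscle, at 40550 ± 10914 CPM and the related Mir23b at 33302 ± 7832. These means do not differ from that of Mir26b beyond their spread over the libraries. Within each library Mir23a was above Mir26b, at 32833 CPM in replicate 1 and 48267 in replicate 2. Mir23b was below Mir26b in replicate 1, at 27764 CPM, and above it in replicate 2, at 38840. Intervals cover the counting error of reads only. They would be too narrow for molecules if PCR copies of 1 molecule were counted as separate reads.

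Mir26a-1 had 31 counts in replicate 1, or 5.74 CPM (95% Wilson interval 4.05 to 8.15), and 174 in replicate 2, or 57.4 CPM (49.5 to 66.6). It was thus low in replicate 1 and high in replicate 2, with a mean of 31.6 ± 36.5 CPM (SD, n = 2), an SD larger than the mean. Mir26a-2 had 378 counts in replicate 1, or 70.0 CPM (63.3 to 77.5), and 120 in replicate 2, or 39.6 CPM (33.1 to 47.4). Its order was the reverse, high in replicate 1, with a mean of 54.8 ± 21.5 CPM. The means of the Mir26a genes do not differ beyond this spread, and which of them was higher depended on the library. All 3 genes passed the detection minimum of 10 counts in both libraries, as did 339 of the 2202 genes. Together they held 3.43% ± 0.569 (SD, n = 2) of the sense miRNA counts, 3.03% in replicate 1 and 3.83% in replicate 2. Any reads of miR-26a-5p that mapped to both Mir26a genes are not in this share.

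**Figure D2:**
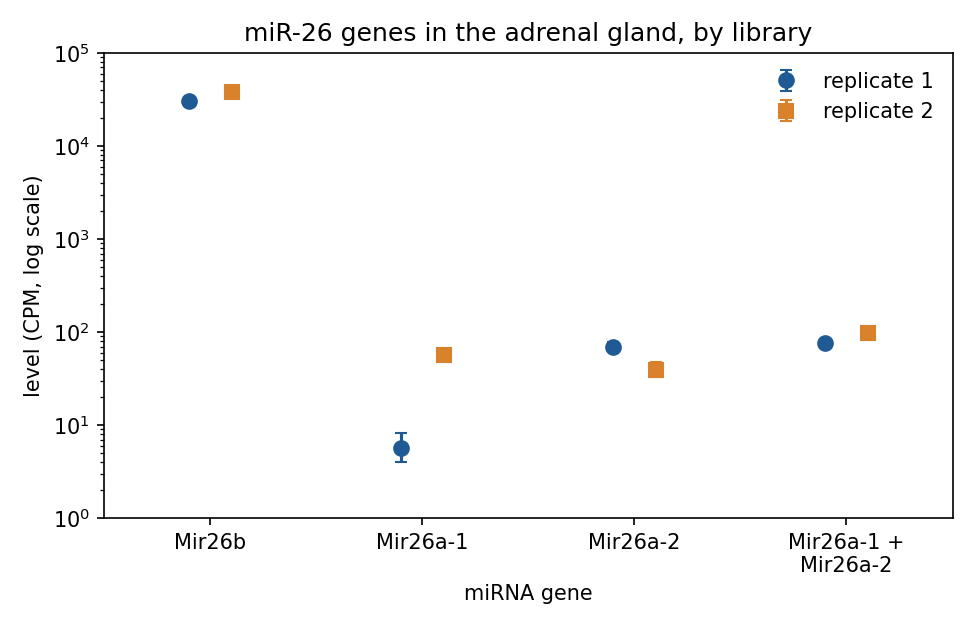
Level in CPM on a log axis for each miR-26 gene and for the sum of the Mir26a genes, with circles for replicate 1, squares for replicate 2 and bars for the 95% Wilson interval. Mir26a-1 was at 5.74 CPM in replicate 1 and 57.4 in replicate 2, Mir26a-2 at 70.0 and 39.6, and their sum at 75.8 and 97.0.

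The comparison of the libraries asked how far the level of each gene differed between them. Ratios were scaled by TMM, a normalisation that sets the typical gene to no difference, and the test for each gene was a two-sided exact binomial test, with Benjamini-Hochberg adjustment over the 434 genes whose counts summed to 10 or more. All 3 miR-26 genes were called, against 58.5% of the 434 (254 genes, 131 or 30.2% higher in replicate 1 and 123 or 28.3% higher in replicate 2). The test sees counting error alone and compares these libraries, not conditions, and takes no account of the spread between animals. With total counts in place of TMM all log2 ratios moved by about 0.30, and the split was 189 higher in replicate 1 and 83 in replicate 2. The directions of the miR-26 genes were the same under both scalings.

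Mir26a-1 was 12.1-fold higher in replicate 2 (log2 ratio of replicate 1 over replicate 2, -3.59; exact binomial test, adjusted p = 4.45e-56). Among the 434 genes its ratio was the fourth in size, and 33 genes differed by at least 4-fold. Mir26b was 1.56-fold higher in replicate 2 (log2 ratio -0.64), close to the median size of 1.50-fold over all genes, and 195 genes had larger ratios. Its p-value was too small for the computer to hold. Mir26a-2 was 1.43-fold higher in replicate 1 (log2 ratio 0.52, exact binomial test, adjusted p = 0.00109), and 239 genes had larger ratios.

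When the spread between the libraries was added to counting error, none of the 3 calls held. That spread was edgeR's common dispersion over all genes, a coefficient of variation of 41.6%. It was estimated from the differences between the same 2 libraries that it was then used to compare, so few calls could be made by construction, and their loss says nothing of how stable the ratios are. With it, edgeR's exact test gave Mir26a-1 an adjusted p = 0.115, and Mir26b and Mir26a-2 adjusted p = 0.999. It called 0 of the 434 genes (0%), with 24 genes at an unadjusted p under 0.05. A likelihood ratio test in edgeR with the same dispersion gave Mir26a-1 an adjusted p = 0.0801 and also called 0 genes, with 34 under 0.05 unadjusted.

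**Figure D3:**
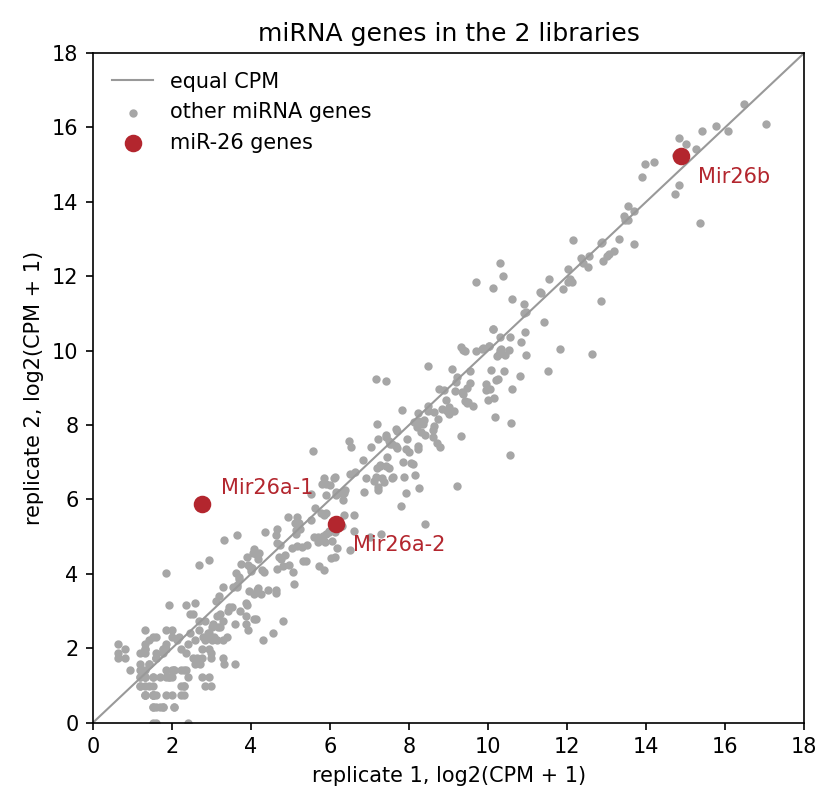
Level of the 434 tested miRNA genes in replicate 1 (x axis) and replicate 2 (y axis), both as log2(CPM + 1), with the miR-26 genes in red and the line of equal CPM. Mir26b lies near the line at the upper end, Mir26a-2 lies below it and Mir26a-1 stands away from the other points, towards replicate 2.

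Ratios between the family's own genes need no scaling between libraries. For each count of Mir26a-1, Mir26b had 5261 counts in replicate 1 and 666 in replicate 2. For each count of Mir26a-2 it had 431 in replicate 1 and 965 in replicate 2. These ratios differed between the libraries in opposite directions, 7.90-fold (exact conditional 95% interval of the odds ratio of replicate 1 to replicate 2, 5.37 to 12.0) for Mir26a-1 and 0.447-fold (0.361 to 0.550) for Mir26a-2.

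The sum of the Mir26a genes behaved otherwise than either gene. Together they had 409 counts in replicate 1, or 75.8 CPM (95% Wilson interval 68.8 to 83.5), and 294 in replicate 2, or 97.0 CPM (86.6 to 108.8). Mir26b had 399 counts for each of these in replicate 1 and 394 in replicate 2. The odds ratio was 1.01 (exact conditional 95% interval 0.868 to 1.18), so at this depth a difference between the libraries was not detectable in Mir26b against the Mir26a sum. The sum was 1.58-fold higher in replicate 2 after TMM, beside 1.56-fold for Mir26b.

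The split within the sum also differed between the libraries. Mir26a-1 made up 7.58% of the counts of the pair in replicate 1 (95% Wilson interval 5.39 to 10.6%) and 59.2% in replicate 2 (53.5 to 64.6%). Mir26a-2 made up the other 92.4% and 40.8%. The odds of a count falling on Mir26a-1 rather than Mir26a-2 were 17.6-fold higher in replicate 2 (exact conditional 95% interval 11.3 to 28.2). The interval covers counting error between these libraries, and with 1 pair of libraries the spread of such a split was not measured. The counts are per gene and do not separate the 5p from the 3p arm, so which arm the 703 counts of the pair came from was not analysed here.

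The same split was then taken in every other pair of genes that give an identical mature miRNA, a comparison chosen after the Mir26a values were seen. Such a sequence was found in 33 groups of exactly 2 quantified genes in RefSeq, and 23 of these pairs reached 10 counts in each library. After adding 0.5 counts to each gene, the odds of the Mir26a pair differed 17.4-fold between the libraries, the highest of the 23. The other 22 ran from 1.00-fold to 5.89-fold with a median of 1.38-fold. The next in order was the pair Mir181a-1 and Mir181a-2, of a family known from lymphocytes and brain. Mir181a-1 made up 89.0% and 98.1% of its counts. Mir181a-2 had 60 counts in replicate 1 and 6 in replicate 2, so the 5.89-fold rests on few counts. Some other pairs also had few counts in 1 gene, such as Mir3074-2 with 1 in replicate 1 and 2 in replicate 2. The pair Mir30c-1 and Mir30c-2, with 2531 and 1357 counts, kept shares of 40.3% and 40.0% for Mir30c-1. Among the 16 pairs that reached 100 counts in each library the Mir26a pair was again the highest. The sum of the Mir26a pair, with its 1.58-fold ratio, was not extreme, since 15 of the other pairs had a smaller ratio of sums and 7 a larger one.

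**Figure D4:**
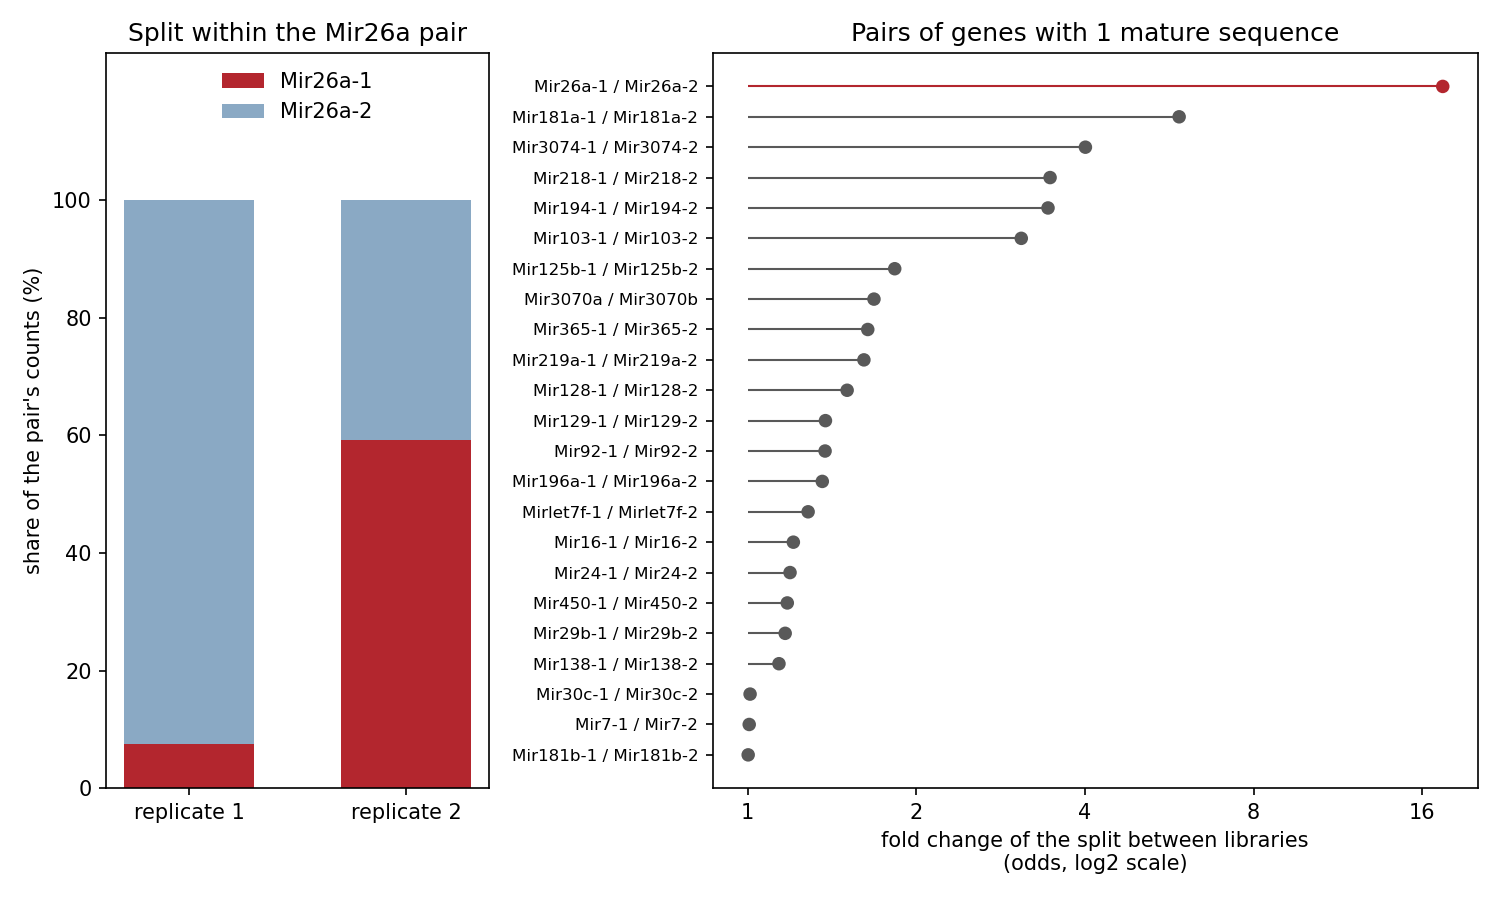
Left, share in percent of the counts of the Mir26a pair that fell on Mir26a-1 (red) and Mir26a-2 (blue) in each library. Right, for the 23 pairs of genes that share a mature sequence, the fold difference in the odds of the split between the libraries on a log2 axis, where 1 means that the split was the same in both libraries. The Mir26a pair is at 17.4 and the other 22 lie between 1.00 and 5.89.

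All reads at the 3 genes were on the sense strand. Mir26b had 0 antisense counts in both libraries, which allows an antisense share of up to 0.00184% in replicate 1 and 0.00259% in replicate 2. Mir26a-1 and Mir26a-2 also had 0, with limits from 0.794% to 9.68% at their depth. The counts without strand were the same as the sense counts for each gene, 163094 and 115857 for Mir26b. None of the 3 has an annotated miRNA gene on the other strand within 50 kb.

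GC content of the hairpins was 58.8% in Mir26b, 60.0% in Mir26a-1 and 53.6% in Mir26a-2, beside a median of 51.7% over the 968 quantified genes with a RefSeq hairpin. Of those hairpins 77.6%, 81.0% and 58.3% had a lower GC content than these genes, so Mir26a-2 was close to the middle. Across 244 genes whose counts summed to 100 or more, the log2 ratio of replicate 1 over replicate 2 was higher at higher GC content (Spearman's rho 0.36, across genes, which are not independent replicates). Mir26a-1, which had the highest GC content of the 3, had the ratio furthest towards replicate 2, and the part of GC content in these ratios was not tested. Predicted folding energies, from RNAfold, were -0.51 kcal/mol for each base in Mir26b, -0.55 in Mir26a-1 and -0.53 in Mir26a-2. The median was -0.41, and 13.6%, 7.95% and 10.8% of the hairpins had a lower energy for each base than these genes.

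The genes whose levels were most like those of each member were named by their distance over log2(CPM + 1) in the 2 libraries, a likeness over 2 points only. Nearest to Mir26b were Mir23b (distance 0.12), Mir23a (0.36) and the let-7 gene Mirlet7i (0.42), all higher in replicate 2. Nearest to Mir26a-2 were Mir184 (0.02), Mir1193 (0.15) and Mir129-2 (0.22), all higher in replicate 1. Genes close in both libraries have similar ratios between them, so these shared directions come with the choice and are not a separate result. Mir26a-1 had no near neighbour. The closest were Mir499 of heart and slow muscle (1.11), the neural gene Mir153 (1.21) and Mir208b of slow muscle (1.50), and their ratios towards replicate 2 were smaller, 3.98-fold, 3.41-fold and 3.61-fold.

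Other miRNAs known, like miR-26, for restraining growth were compared from a list of 14 genes. The list holds the miR-101 and miR-138 genes, reported to lower Ezh2, and the miR-34, miR-15, miR-16, miR-195 and miR-497 genes, which lower cyclins and their kinases. Of the 14 genes, 13 reached 10 counts in each library, and Mir101c, named after its values were seen, had 0 in both. Mir26b was counted above each of them. By mean the highest was Mir195a with 6372 CPM in replicate 1 and 959 in replicate 2, followed by Mir15a with 3613 and 1058. Mir34c, a miRNA of ciliated cells and testis that p53 can induce, had 1123 CPM in replicate 1 and 3278 in replicate 2. Mir195a and Mir15a led the list in replicate 1 alone, since in replicate 2 Mir34c was above Mir15a and Mir15a above Mir195a. Mir15b had 1030.9 ± 753 CPM, Mir16-1 1023.8 ± 452 and Mir34a 766 ± 303 (SD, n = 2).

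Between the libraries the listed genes did not all differ in 1 direction. The exact binomial test with TMM called 8 of the 13 higher in replicate 1, beside 30.2% of all genes, and 3 higher in replicate 2, beside 28.3%, with 2 not called. The listed genes belong to a few families and are not 13 independent observations, so a shift of the list as a whole was not tested. The median log2 ratio, with replicate 1 as numerator, was 0.36, beside 0.08 over all 434 genes. Mir195a was 5.39-fold, Mir15a 2.77-fold and Mir15b 2.54-fold higher in replicate 1, whereas Mir34c was 3.60-fold higher in replicate 2, the direction of Mir26b. The 14 genes together held 1.72% of the sense miRNA counts in replicate 1 and 0.850% in replicate 2, while the miR-26 genes held 3.03% and 3.83%. Mir16-1 with Mir16-2, and Mir138-1 with Mir138-2, share a mature sequence, so their counts carry the same limit as those of the Mir26a genes.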

How the data were processed

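The authors deposited, for each of 2 libraries of 1 group, raw counts of reads for every miRNA gene in 3 columns without a header. Per the notes deposited with them, the assembly is mm10 and the annotation GENCODE M21. Aligner, counter and trimming: not given in the sources used here. Their totals were read as unstranded, sense and antisense counts of 1 set of reads, and the sense column was used. The 4 summary entries stayed out of library sizes. CPM, TMM factors and the common dispersion (edgeR 4.0.16, R 4.3.3), exact binomial tests (scipy 1.17.1) with a 0.05 threshold and a prior of 0.5 counts, and exact odds ratio intervals were computed from the counts. With 1 group no contrast between conditions could be fitted. RefSeq hairpins were found for 968 of the gene symbols and mature sequences for 1018. Folding used RNAfold 2.7.2. The test was run on simulated data with known changes. DESeq2 1.42.0 size factors, other minimums and priors, thinning and each library alone were tried. Named genes were the 3 members, the 3 genes nearest each, miRNA genes within 50 kb, and the 6 highest of the list and of the pairs. Members and lists were chosen with earlier results of these data known.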

Additional observations from a re-analysis of the deposited data

How the results depend on the processing

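The ratios of Mir26b, Mir26a-1 and Mir26a-2 between the libraries kept their direction under all 9 alternatives and their call under 7. Not all of these could change a direction. The count minimums do not enter a gene's ratio, the dispersion settings change only the error, and a larger prior matters little at these counts. The direction was thus tried mainly by the scalings and by thinning. Both settings that added the common dispersion to counting error lost the calls. Their log2 ratios were -0.64 for Mir26b, -3.62 for Mir26a-1 and 0.52 for Mir26a-2. They called 0 genes in place of 254, with a spread taken from the same 2 libraries. The likelihood ratio form of this alternative was chosen after seeing the data. Over all alternatives the log2 ratio of Mir26a-1 lay between -3.67 and -3.30, that of Mir26b between -0.71 and -0.34, and that of Mir26a-2 between 0.45 and 0.82. With total counts 69.5% of the calls were higher in replicate 1, beside 51.6% with TMM. With all reads as the library size the levels were 13528 CPM for Mir26b, 12.7 CPM for Mir26a-1, 21.5 CPM for Mir26a-2 and 1.36% for the family. With counts without strand they were 42504 CPM for Mir26b and 4.26% for the family, since the total was smaller. Each library alone gave Mir26b 30216 to 38237 CPM, Mir26a-1 5.74 to 57.4, Mir26a-2 39.6 to 70.0 and the family 3.03 to 3.83%. The log2 ratio of Mir26a-1 over Mir26a-2 was -3.61 in replicate 1 and 0.54 in replicate 2, so its sign depended on the library. Low counts limit Mir26a-1 most, with 31 in replicate 1. No paired analysis was possible because there is only 1 group.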

Other observations

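Genes whose mature miRNA is also made by another gene, as with the Mir26a genes, were described as a class. Of 1018 quantified genes with a mature sequence in the RefSeq table, 92 shared one with another gene and 926 did not. A count of 10 in each library was reached by 44 of the 92 (47.8%) and by 262 of the 926 (28.3%). Among those detected, the median of the mean levels was 44.6 CPM in the first class and 152 CPM in the second. These values, and the shares below, leave out reads with more than 1 place in the genome, as reads of a shared mature sequence can be. They are therefore not levels of the shared miRNAs, and whether those miRNAs were lower was not tested. The 92 genes held 1.21% of the sense miRNA counts in replicate 1 and 0.940% in replicate 2. In the pairs of exactly 2 genes the highest levels were those of Mirlet7f-2 at 4089 ± 282 CPM (SD, n = 2), Mir16-1, Mir92-1, Mir181b-2, Mir16-2 and Mir30c-2 at 274 ± 8.11 CPM. Mir26a-2 at 54.8 ± 21.5 CPM lay near the median of the first class, and Mir26a-1 at 31.6 ± 36.5 CPM could not be placed on either side of it.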
